A study of Drosophila melanogaster with 12 samples.

Results

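The 6 arrays of fly heads taken after conditioning, out of 12 arrays in all, are described here by whether they carried yolk protein transcripts. The arrays were chosen by the label (after conditioning) and then divided on the measured intensity of Yp1: 3 arrays lay above 1000 and are called yolk-high, and 3 lay below 100 and are called yolk-low. All 12 arrays measured total RNA of heads of Drosophila melanogaster. The labels mark the flies as OR, without expanding it, and the treatment as a behavioural stimulus, and they give no age, sex, genotype beyond OR, or kind of conditioning. The conditioned arrays were 3 at 0 h and 3 at 24 h after conditioning, and the other 6 arrays were of non-conditioned flies, again 3 at each time.

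Yolk proteins are made in adult female flies by the fat body and by follicle cells of the ovary, are carried in the haemolymph and are taken up by growing oocytes. Fat tissue also surrounds the brain, so heads of females contain yolk protein mRNA. Yp1, Yp2 and Yp3 are under control of the sex determination gene doublesex (dsx), whose female and male products act on them in opposite directions, and they respond to feeding, ecdysone and juvenile hormone. In RNA of whole heads, fewer cells of a type and less RNA per cell cannot be told apart.

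At 0 h, replicate 3 was yolk-high and the other pair yolk-low. At 24 h the reverse held, with replicates 1 and 2 yolk-high and replicate 3 yolk-low. Each side therefore mixed the times, and all differences below are the mean of the difference within 0 h and the difference within 24 h. The labels call replicate 3 at 0 h a biological duplicate of the first array of its group, although the former was yolk-high and the latter yolk-low. Replicates 1 and 2 at 24 h, which were both yolk-high, are likewise described as duplicates. The titles come in 2 forms, and at each time replicate 3 had the form without a # sign. Within either form, yolk state and time cannot be told apart, but the yolk-high array had that form at 0 h and the yolk-low array had it at 24 h, so a constant effect of the form cancels in the mean over both times.

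Intensities were linear values for 18952 probe sets, deposited at a common level, with array medians from 19.9 to 21.8. Differences were taken on the log2 scale after adding 16, over the 11261 probe sets in the upper 60% by mean intensity. Photoreceptor genes (6 named on the array) summed to intensities of 26500 to 30500 in yolk-high and 28200 to 29000 in yolk-low arrays. Neuronal genes (8 named) summed to 5010 to 5350 and 4980 to 5200. Transcripts of head tissue were thus present on all arrays at overlapping levels.

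Yp1, the transcript on which the arrays were divided, had an intensity of 4530 in the yolk-high array at 0 h and of 5030 and 6650 in the 2 yolk-high arrays at 24 h. In the yolk-low arrays it was 1.07 and 3.72 at 0 h and 20.8 at 24 h. No array lay near either limit, since the lowest yolk-high value was 4530 and the highest yolk-low value 20.8. The 6 non-conditioned arrays, which took no part in the division, lay between 7.47 and 17.6 with a median of 12.7. Values of this size are close to or below the median of all probe sets on an array, so the size of a difference for Yp1 and Yp2 depends on the offset added before taking logs.

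Yp2, whose gene is the neighbour of Yp1 on the X chromosome, had intensities of 1860 in the yolk-high array at 0 h and of 3380 and 5500 in those at 24 h. The yolk-low arrays were at 8.78, 14.2 and 26.4, and the non-conditioned arrays at 2.39 to 11.5. Yp3 lies elsewhere on the X chromosome. It was at 2230 at 0 h and at 4070 and 5560 at 24 h in the yolk-high arrays, against 189, 193 and 230 in the yolk-low and 179 to 245 in the non-conditioned arrays. For all 3 genes the yolk-high arrays stood apart from the 9 others. The yolk-low arrays lay inside the range of the non-conditioned arrays for Yp3. For Yp1, at 1.07, 3.72 and 20.8, they lay outside the range of 7.47 to 17.6, and for Yp2 the values of 14.2 and 26.4 lay above it. Both genes were dim on all of these arrays. Unlike the other pair, Yp3 stayed well above the array medians where Yp1 was dim, and the lowest yolk-high array exceeded the highest other array 9.11-fold.

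The time-adjusted log2 differences, with 3 arrays against 3, were 7.63 ± 0.16 for Yp1, 6.39 ± 0.18 for Yp2 and 3.86 ± 0.15 for Yp3 (± SE). Here and below, the SE comes from the limma fit to all 12 arrays, the non-conditioned ones included. It is thus not the spread of the conditioned arrays alone. With an offset of 1 in place of 16 the differences were 9.28, 7.28 and 3.95, and with an offset of 64 they were 6.11, 5.14 and 3.6. They are descriptions without a test, because the arrays were divided on a transcript of the same set. Among the yolk-high arrays the order was the same for each gene, lowest at 0 h and highest in replicate 2 at 24 h. The spread from lowest to highest was 1.47-fold for Yp1, 2.95-fold for Yp2 and 2.49-fold for Yp3.

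**Figure D1:**
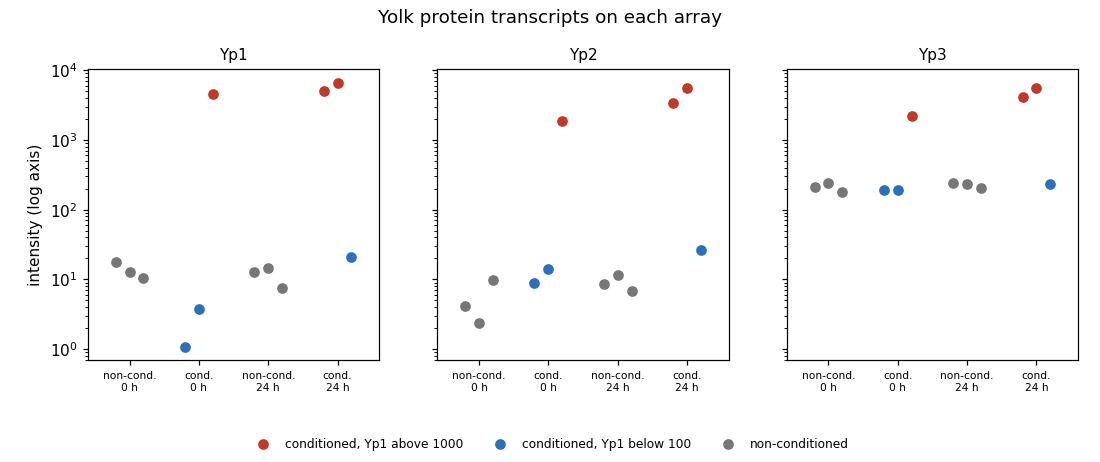
Intensity (log axis) of Yp1, Yp2 and Yp3 on each of the 12 arrays, by conditioning and time, with 1 point per array. The 3 yolk-high arrays lie at 1860 or above for every gene, and all other arrays lie at 26.4 or below for Yp1 and Yp2 and at 245 or below for Yp3.

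To ask which other transcripts followed the yolk protein genes, a probe set was counted when every yolk-high array lay on the same side of every yolk-low array within 0 h and within 24 h, and the time-adjusted difference was at least 0.5 on the log2 scale. By this rule 25 probe sets (0.222% of 11261) were higher and 10 (0.0888%) were lower in yolk-high arrays. Beside the 3 yolk protein genes, the 22 others that were higher differed by 0.50 to 0.94 and the 10 that were lower by -0.88 to -0.50. Among these followers, a difference of at least 1 was found for Yp1, Yp2 and Yp3 alone. Regardless of size, 11.4% of probe sets were separated within both times in the higher and 11.2% in the lower direction. Separation alone says little, because at each time a single array was set against a pair, and arrays in random order would often be separated too. The median absolute difference over all probe sets was 0.0597. As a scale for these counts, 42 probe sets differed by 0.5 or more in either direction between yolk states, whereas 207 did so between the times in non-conditioned arrays.

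**Figure D2:**
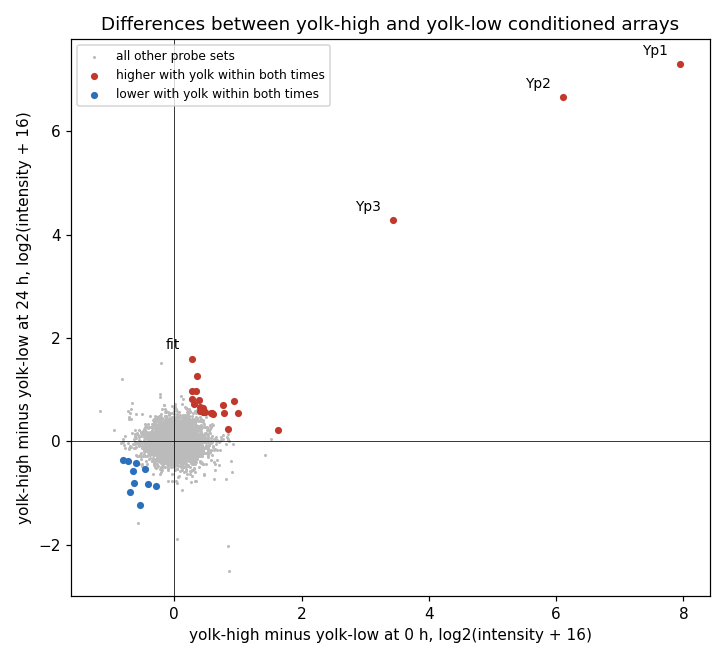
Difference between yolk-high and yolk-low arrays on the log2(intensity + 16) scale at 0 h (horizontal) and at 24 h (vertical), with 1 point per probe set of 11261. Yp1, Yp2 and Yp3 lie far to the upper right at 3.44 or more on both axes, and fit lies at 0.28 at 0 h and 1.6 at 24 h.

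Most of these followers were dim, and the numbers rested on both arrays that were alone in their yolk state at a time: 81 higher and 58 lower were counted without the yolk-high array at 0 h, and 106 and 75 without the yolk-low array at 24 h, where separation was asked for at a single time. Without replicate 2 at 0 h, 17 were lower. Of the 25 higher probe sets, 13 stayed under an intensity of 50 on every array, as did 9 of the 10 lower ones. A narrower count asked in addition that all 3 yolk-high arrays lie beyond all 9 other arrays, the non-conditioned ones included. It left 7 higher probe sets (0.0622%) and 1 lower (0.00888%). The 7 were the 3 yolk protein genes, a dim probe set of RFeSP, and 1633998_s_at, 1624543_s_at and 1624819_s_at, for which no gene name is given here. These counts were 14 and 9 without the yolk-high array at 0 h, and 6 and 3 without the yolk-low array at 24 h. The lower count was 5 without either yolk-high array at 24 h and 2 without non-conditioned replicate 3 at 0 h. The single lower one, 1625142_s_at, is assigned to more than 1 gene and was dim, at 2.40 to 4.75 in yolk-high and 5.74 to 30.1 in yolk-low arrays.

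The unnamed probe set 1624543_s_at was the brightest of those added to the yolk protein genes. It had intensities of 608 in the yolk-high array at 0 h and of 509 and 723 in those at 24 h, and of 335, 366 and 368 in the yolk-low arrays. Non-conditioned arrays lay between 374 and 446. The difference was 0.74 ± 0.11, with 0.77 within 0 h and 0.70 within 24 h. Similarly, 1633998_s_at was at 94.8 at 0 h and 70.3 and 112 at 24 h in yolk-high arrays, against 40, 43.7 and 44.8 in yolk-low and 39.2 to 57.2 in non-conditioned arrays, a difference of 0.86 ± 0.14. Both were thus raised to a similar extent at either time. The third, 1624819_s_at, was at 42.6 to 49.6 against 23.2 to 29.8, with non-conditioned arrays at 14.8 to 33.8 (0.56 ± 0.16).

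RFeSP encodes the Rieske iron-sulfur subunit of respiratory complex III. Its following probe set, 1641174_at, had values of 26.7 at 0 h and 25.6 and 47.7 at 24 h in yolk-high arrays, against 13.6, 15.3 and 18.7 in yolk-low arrays (0.53 ± 0.16). A much brighter probe set of the same gene, 1631856_a_at, lay at 1910 to 2240 in yolk-high and 1860 to 2200 in yolk-low arrays and differed by 0.05 ± 0.06. The 2 probe sets of RFeSP therefore disagreed.

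The fat body gene fit, a female-enriched secreted peptide gene of the tissue around the brain, was the largest follower after the yolk protein genes (0.94 ± 0.27), but unevenly so. At 24 h the yolk-high arrays were at 1380 and 1950 and the yolk-low array at 527, a difference of 1.6. At 0 h the yolk-high array had 628, against 427 and 617 in the yolk-low arrays, a difference of 0.28. The non-conditioned arrays ranged from 162 to 371 at 0 h and from 604 to 749 at 24 h. Every yolk-high array lay above the non-conditioned arrays of its own time, but at 0 h both yolk-low arrays did so too. Over both times pooled, the yolk-high array at 0 h was inside the non-conditioned range and those at 24 h above it. The odorant-binding protein gene Obp99a, named here because of its values, had the same form. It was at 142 and 259 in yolk-high arrays against 70.7 at 24 h, and at 78.8 against 49.2 and 68.7 at 0 h (0.81 ± 0.20 over both times). Non-conditioned arrays were at 48.7 to 54.1 at 0 h and at 64.9 to 86.9 at 24 h.

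The brighter followers in the remainder are likewise named for their values. CG11211 was at 242 in the yolk-high array at 0 h against 106 and 121, and at 127 and 191 against 102 at 24 h (0.77 ± 0.14). Non-conditioned arrays lay between 105 and 151, so 1 yolk-high array was inside their range. The zinc finger gene mamo was at 174 to 189 in yolk-high and 116 to 130 in yolk-low arrays (0.50 ± 0.11). Here the non-conditioned arrays, at 139 to 204, held the yolk-high values and lay above the yolk-low ones, and 4 further probe sets of mamo differed by 0.01 to 0.21. The unnamed 1629530_at, 1626319_a_at and 1623635_at had differences of 0.92 ± 0.57, 0.66 ± 0.14 and 0.59 ± 0.50, and the yolk-high and yolk-low values of each overlapped once the times were pooled. The lower follower that exceeded an intensity of 50 was Cyp4g1, a cytochrome P450 gene of hydrocarbon synthesis in oenocytes, at 12.3 to 47.0 in yolk-high and 19.5 to 58.5 in yolk-low arrays. These ranges overlapped too (-0.62 ± 0.33). Non-conditioned arrays lay at 2.11 to 39.5 with a median of 10.2, against medians of 13.7 in yolk-high and 28.5 in yolk-low arrays.

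**Figure D3:**
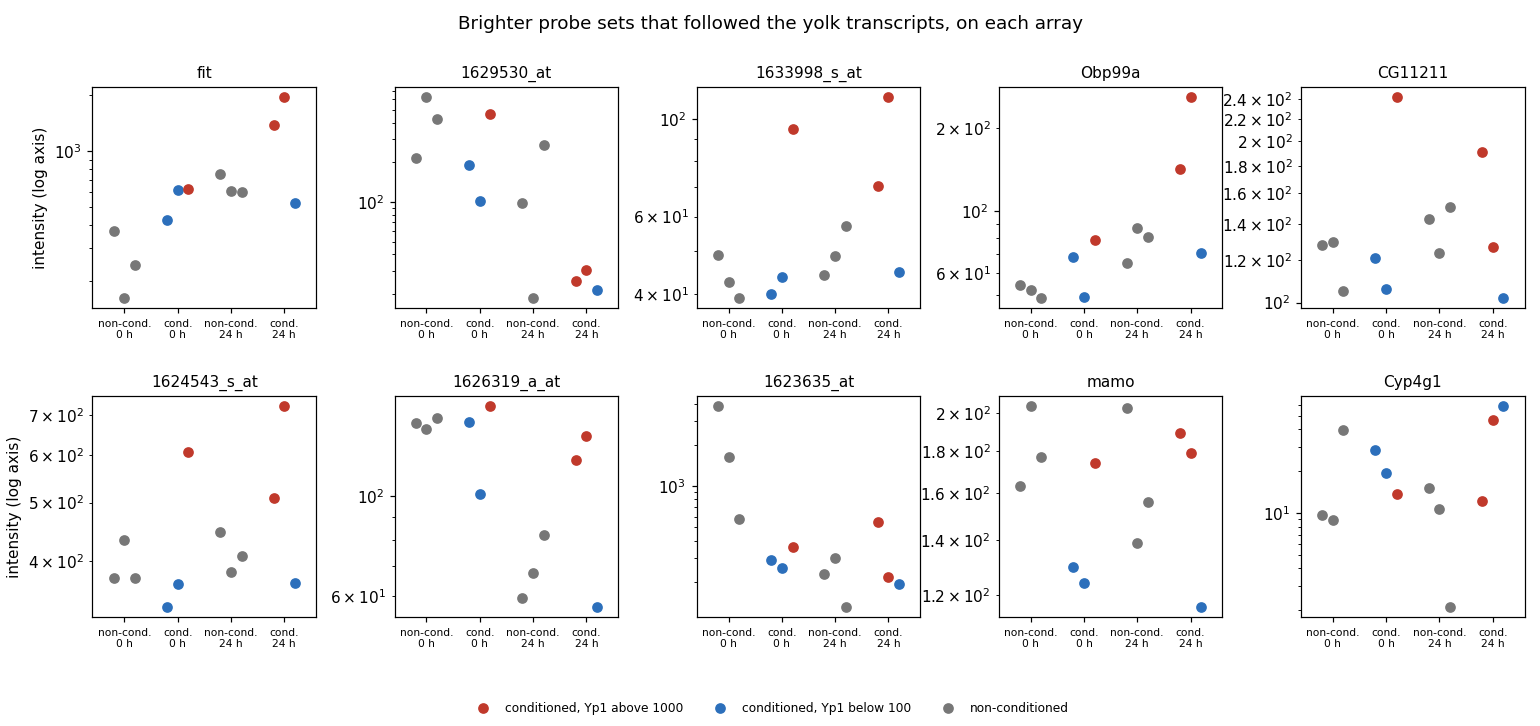
Intensity (log axis, scale differs by panel) on each of the 12 arrays for the 10 probe sets outside the yolk protein genes that followed them and reached 50 on at least 1 array. In 1633998_s_at and 1624543_s_at all 3 yolk-high arrays lie above all others. In fit and Obp99a the 2 yolk-high arrays at 24 h do so. In both genes the yolk-high array at 0 h lies above the other arrays at 0 h but not above all non-conditioned arrays at 24 h.

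Genes with known sex differences in head fat were then compared as a list. Of the male-biased genes of that tissue, 0 of 3 named on the array followed. Cyp4d21, a cytochrome P450 gene also called sxe1, was at 2670, 2600 and 2790 in yolk-high arrays and at 2820, 2830 and 2620 in yolk-low arrays (-0.02 ± 0.07). The lipase-like gene sxe2 was at 2650 to 3040 and 2710 to 2960 (-0.03 ± 0.09), and the odorant-binding protein gene Obp99b at 3200 to 3460 and 3090 to 3830 (-0.08 ± 0.15). All 3 genes had high intensities on every array, and the yolk-high and yolk-low arrays overlapped.

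Among 9 sex determination genes, which include members of the splicing cascade that ends at dsx and fru, 0 followed and the differences lay between -0.25 and 0.18. Sxl, the female switch gene, was at 322 in the yolk-high array at 0 h against 249 and 255, but at 260 and 265 against 260 at 24 h (0.18 ± 0.08). The splicing regulator gene tra lay at 144 to 187 and 146 to 184 (0.04 ± 0.08), and fru, which directs male courtship, at 142 to 184 and 144 to 176 (0.13 ± 0.11). Further, dimmer probe sets of fru differed by -0.21 to 0.38. The highest, 1638111_at (0.38 ± 0.18), was separated within both times, at 14.7 to 19.2 in yolk-high and 6.67 to 12.4 in yolk-low arrays. Non-conditioned arrays lay at 11.2 to 27.5 there. The brightest probe set of dsx differed by -0.10 ± 0.08. A dim second probe set of dsx, 1623776_s_at, was at 20.3 in the yolk-high array at 0 h against 11.3 and 14, and at 30.5 and 32.2 against 16.2 at 24 h. It missed the count for its size of 0.45 ± 0.17. Non-conditioned arrays were at 8.27, 11.2 and 20.3 at 0 h, and at 12.2, 12.3 and 22 at 24 h. The highest of them at 0 h thus equalled the yolk-high array of that time, while both yolk-high arrays at 24 h lay above all non-conditioned arrays.

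Dosage compensation genes, which raise transcription from the single X chromosome of males, showed 0 followers among 5 named. The male-specific subunit gene msl-2 lay at 221 to 255 in yolk-high and 219 to 252 in yolk-low arrays (-0.05 ± 0.08). The RNAs roX1 and roX2 and the male-biased gene to were not analysed here. Over 1617 probe sets of other X-linked genes the median difference was -0.004, with medians of -0.002 to 0.001 on the large autosomal arms and 0.024 over 79 probe sets of chromosome 4, as placed by the RefSeq annotation of Release 6.

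Of genes that regulate yolk protein synthesis or uptake, 8 were named on the array, 7 passed the filter and 0 followed, with differences of -0.10 to 0.18. Both partners of the ecdysone receptor were included, EcR at -0.08 ± 0.13 and usp at 0.00 ± 0.08, as were the juvenile hormone receptor genes Met and gce, each at -0.05. The oocyte yolk receptor gene yl was at 4.51 or below on every array. In the wider list of ecdysone and juvenile hormone genes 0 of 15 followed, and among insulin and nutrition genes 0 of 14, of which 12 passed. The growth kinase gene S6k came nearest there, at 350 to 370 in yolk-high and 291 to 310 in yolk-low arrays (0.27 ± 0.07).

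Other fat body genes, among them genes of lipid transport and storage, were level between the yolk states. Of 16 named, 13 passed the filter and 0 followed, and their summed intensity was 29100 to 31600 in yolk-high and 29500 to 32200 in yolk-low arrays. The lipoprotein gene apolpp was at 5720 to 6400 and 5830 to 6360 (-0.01 ± 0.12), the storage protein gene Lsp2 at 3570 to 6380 and 3730 to 6160 (-0.10 ± 0.13), and the fatty acid synthase gene FASN1 at 4560 to 5880 and 5260 to 5870 (-0.05 ± 0.11).

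Markers of female tissues other than fat were compared next. Of 16 eggshell genes, made by ovarian follicle cells that also make yolk protein, 0 reached an intensity of 50 on any array and 2 passed the filter. Their sum was 52.6 to 75.0 in yolk-high and 54.9 to 90.1 in yolk-low arrays. Female germline genes (17 named, 6 passed, 0 followers) summed to at most 435 in yolk-high, 405 in yolk-low and 410 in non-conditioned arrays. The brightest were gcl, at 165 to 192 in yolk-high and 163 to 167 in yolk-low arrays (0.14 ± 0.07), and grk, at 114 to 143 and 108 to 123 (0.07 ± 0.09). Genes of the female reproductive tract (3 named, 1 passed, 0 followers) summed to 53.9 to 73.0 against 47.4 to 70.3, and the female pheromone genes Fad2 and eloF were at 15 or below on every array. Male accessory gland genes (19 named, 10 passed, 0 followers) summed to 80.1 to 107 in yolk-high, 72.7 to 83.9 in yolk-low and 77.6 to 1580 in non-conditioned arrays. Several of them passed the filter only through non-conditioned replicate 3 at 0 h. Acp98AB was at 351 there and at 4.9 or below on all other arrays, and Mst57Da at 238 and at 4.52 or below. Such genes were too dim on the conditioned arrays to follow, so the 0 followers are no result about this list. Testis genes (20 named, 7 passed, 0 followers) summed to 269 to 362 and 234 to 290. Their median difference of 0.11, taken over all 20 named, was the highest among lists without a follower. The median of 0.00054 over the 11261 probe sets that passed the filter is not a like measure, since most of these genes did not pass. Of the testis genes, 1 reached 50 on any array.

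Across all 22 lists, 223 genes were named on the array and 146 passed the filter. Only genes that passed the filter could be counted as followers. Of these 146, 5 followed: the 3 yolk protein genes, fit and Cyp4g1. Outside the yolk protein genes, 217 of 220 listed genes differed by less than 0.5, whether or not they passed the filter. Over the 11261 probe sets that passed, 0.222% followed as higher and 0.0888% as lower, and 42 differed by 0.5 or more. The counts from the lists are no result about the lists. The largest difference that was not counted was in edin, an immune-induced peptide gene, at -1.08 ± 0.66. Its arrays overlapped, at 42.8 to 107 in yolk-high and 62.3 to 239 in yolk-low arrays. Genes that passed the filter and could be counted were 9 of 10 antimicrobial peptide, 13 of 14 muscle and 3 of 19 digestive enzyme genes, and all 9 haemocyte, 8 neuronal, 7 glial and 6 photoreceptor genes. None of these followed. Among them, alphaTry passed the filter only through non-conditioned replicate 3 at 0 h (96.9) and was at 3.99 or below on all conditioned arrays. With so few followers over all probe sets, a count of 0 in lists of this size, here and above, does not set a list apart.

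**Figure D4:**
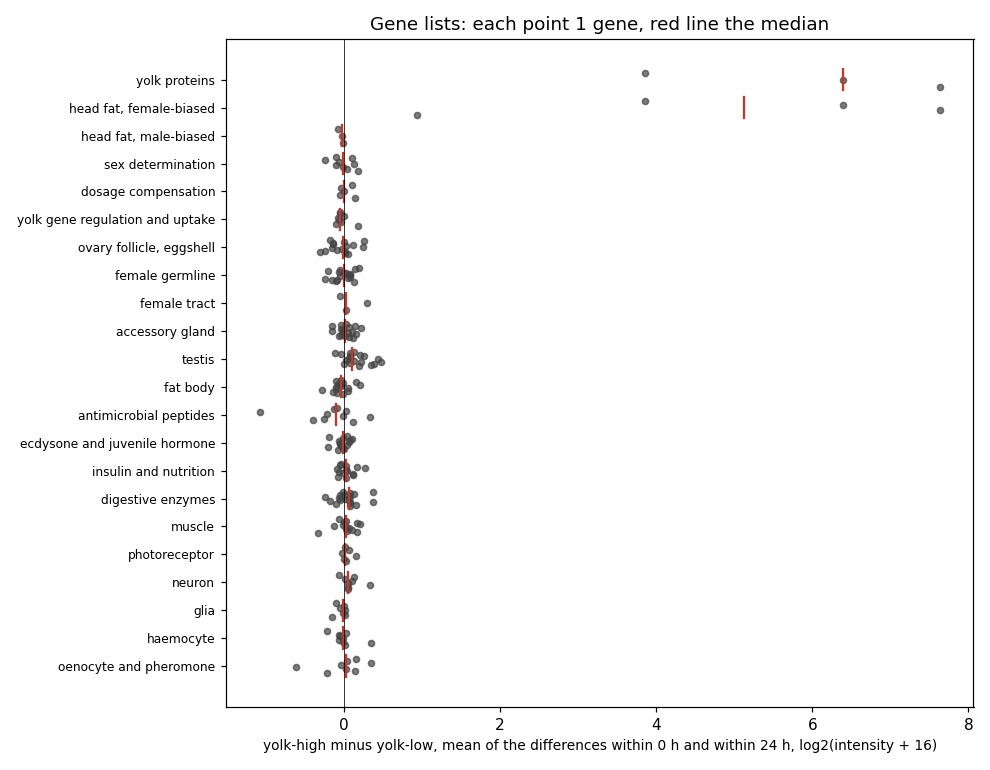
Time-adjusted difference between yolk-high and yolk-low arrays on the log2(intensity + 16) scale for each named gene of 22 lists, with 1 point per gene and a red line at the median of the list. The yolk protein genes stand at 3.86 to 7.63, and all other genes lie between -1.08 and 0.94.

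The genes beside the yolk loci were examined after the values were known. Of the 3 protein-coding genes on each side of Yp1, Yp2 and Yp3, 12 genes other than the yolk genes were named on the array, 9 passed the filter and 0 followed. Their differences lay between -0.29 and 0.24. CG15312, next to Yp1, differed by 0.06 ± 0.09, and the neighbours of Yp3, Rtc1 and rdgB, by 0.08 ± 0.11 and 0.05 ± 0.09.

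Without the yolk protein probe sets, the yolk state made little difference to how near the arrays were to each other. The mean absolute log2 difference over all other probe sets was 0.132 between the 2 yolk-low arrays at 0 h, and 0.140 and 0.139 between each of them and the yolk-high array. At 24 h it was 0.127 between the 2 yolk-high arrays and 0.128 and 0.130 between each of them and the yolk-low array. Replicates of non-conditioned heads, none of which was yolk-high, differed by 0.147 to 0.184.

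Time is the label that both sides share, and it was tested with limma in a fit that held the yolk state as a covariate. After conditioning, 275 probe sets (2.44%) rose from 0 h to 24 h and 181 (1.61%) fell, at an adjusted p below 0.05. Without the yolk term these counts were 306 and 225, and they fell to 28 and 13 without the yolk-high array at 0 h and to 136 and 50 without the yolk-low array at 24 h. Leaving out any of the other conditioned arrays gave 167 to 219 rises and 80 to 109 falls. The 275 rises include Yp1, Yp2 and Yp3. Because the yolk state was set by Yp1, their place among the rises is no result. Of the 32 followers outside the yolk protein genes, 0 rose and 2 fell in this comparison, the latter being 1629530_at and 1626319_a_at. The alpha-glucosidase gene tobi rose by 1.5 ± 0.10 (adjusted p = 3.8e-07): it was at 150 in the yolk-high and 162 and 195 in the yolk-low arrays at 0 h, and at 487 and 534 in the yolk-high arrays and 473 in the yolk-low array at 24 h. CG7997 and CG31075 also rose, by 1.06 and 1.02 (adjusted p = 4.36e-07 for both), and CG7214 and CG14022 fell, by 2.17 (4.36e-07) and 1.11 (1.62e-05). In these 5 genes all arrays at 0 h were separated from all arrays at 24 h, whatever their yolk state. CG3348 fell by 1.84 (adjusted p = 0.00517), but its yolk-high array at 0 h stood at 536 against 163 and 192 in the yolk-low arrays, and without that array the adjusted p was 0.446.

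Without conditioning, 349 probe sets (3.1%) rose and 224 (1.99%) fell between these times. The counts were 215 rises without replicate 3 at 24 h and 147 falls without replicate 1 at 0 h. The largest rises of named genes were in CG9377, by 1.38 (adjusted p = 2.82e-06), fit, by 1.35 ± 0.26 (0.00461), and smp-30, a regucalcin gene, by 1.25 (4.01e-08). The largest falls of named genes were in the immune genes DptB and edin and the stress-responsive Diedel, by 3.94, 3.59 and 2.61 (adjusted p = 0.000222, 0.00234 and 0.0218), and Diedel passed the threshold in 9 of 15 settings. These arrays played no part in the division by Yp1. Of the 32 followers outside the yolk protein genes, 1 rose there, fit, and 3 fell, namely 1629530_at, 1626319_a_at and 1623635_at. In the yolk-low conditioned arrays, fit stood at 427 and 617 at 0 h and at 527 at 24 h, so the times overlapped there. In conditioned arrays, its change between the times was 0.70 ± 0.27 with the yolk state held fixed (adjusted p = 0.191), and it ran from 0.04 without the yolk-high array at 0 h to 1.36 without the yolk-low array at 24 h (adjusted p = 0.988 and 0.0461). The time effect of conditioned and non-conditioned arrays differed at an adjusted p below 0.05 for 0 probe sets by limma, and 749 had an unadjusted p under 0.05.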

How the data were processed

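The deposited table holds 1 linear intensity per probe set and array. The sources used here do not name the authors' software, background correction or scaling. Every array had a 2%-trimmed mean intensity of 150. The 183 control probe sets were removed, 16 was added and log2 taken, and the upper 60% by mean intensity were kept (above 8.38). Genes were named from the platform annotation through the RefSeq table of Release 6 (13543 of 13646 probe sets with 1 symbol; 402 with several and 4721 with none were not named). A gene is given by its brightest probe set.

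limma 3.58.1 in R 4.3.3 fitted 4 group means and the yolk state to all 12 arrays (7 residual degrees of freedom), with eBayes and a mean-variance trend. p-values are two-sided and Benjamini-Hochberg adjusted over 11261 probe sets. They measure the spread between these arrays, which may be technical in part, and their number limits the precision. No p is given between yolk states. The fit was tested on simulated data.

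Always named were the yolk, sex determination and head fat genes. Added were up to 12 probe sets per direction apart from all other arrays, up to 4 followers per list, and 3 per direction and time comparison. Other genes and probe sets in the text were picked after their values were seen. The members, lists and rules were chosen with earlier results of these data known, and 4 misplaced list entries were removed later. Alternatives covered offset, filter, scaling, title form, variance trend, yolk term and each array.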

Additional observations from a re-analysis of the deposited data

How the results depend on the processing

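Yp1, Yp2 and Yp3 followed in every alternative run. The counts of the other followers rested mainly on dim probe sets. Counts are given as higher and lower, then the same beyond all 9 other arrays. They were 142, 107, 13 and 8 with an offset of 1, and 10 and 0, with 0 lower beyond the others, with an offset of 64. Without a filter 20 were lower, and 11 and 2 lay beyond the others. With the upper 40% they were 11, 0, 4 and 0, and with a difference of at least 1 they were 3, 0, 3 and 0. They were 106 and 75 within 0 h only, and 81 and 58, with 3 lower beyond the others, within 24 h only, where the rule asks for separation at a single time. Leaving out single arrays gave 25 to 106 higher, 10 to 75 lower, and 6 to 14 and 1 to 9 beyond the others, the highest counts again where an array was the sole one of its yolk state at a time. Non-conditioned replicate 3 at 0 h, which alone carried accessory gland transcripts (sum 1580), was among those left out, chosen after seeing the data. Quantile normalization, median centring and the title form kept all counts within 1.5 times.

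Between times in conditioned arrays, the counts became 181 and 89 without a filter and 144 and 64 without the variance trend. They ran from 28 to 219 and 13 to 109 when arrays were left out, lowest without replicate 3 at 0 h, which leaves the comparison to yolk-low arrays. In non-conditioned arrays they became 192 and 115 without the trend, and 215 to 326 and 147 to 234 when arrays were left out. CG3348 missed the threshold without the trend too (adjusted p = 0.0526). No called result changed sign. The alternatives followed single genes only where these were named by the rules above. Of their uncalled differences between yolk states, 3 changed sign: Obp99b was at 0.05 within 0 h only, and Cyp4d21 at 0.04 and tra at -0.01 within 24 h only. Other listed genes with small differences also changed sign between the times, such as EcR, at -0.25 within 0 h and 0.09 within 24 h. No paired analysis was possible because the labels give no replicate numbers shared between groups.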
